A study of Homo sapiens with 16 samples.

Results

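The 9 genes TRIM25, UNC119B, PDE1C, BRI3BP, UCA1, ZNF114, UAP1L1, CLU and MEGF6 were followed across the 4 treatments of a drug-combination experiment in the human breast cancer line MDA-MB-231, which is of the triple-negative type. They are 9 of the 37864 genes in the count table, and all 9 were among the 17991 that had enough counts to be tested. They were chosen by their measured expression in these libraries: selected on the afatinib change, in most cases both alone and in cells that also received paclitaxel. Their afatinib changes are therefore given below as values without a test. The libraries came from cells given afatinib together with paclitaxel (the combination), afatinib alone, paclitaxel alone, or the solvent DMSO, with 4 replicates in each group. Afatinib (BIBW2992) blocks the kinases of the EGFR family irreversibly, and paclitaxel stabilises microtubules and arrests cells in mitosis. The labels used here state neither the doses nor the length of treatment. Nothing in the labels says that the replicates were separate cultures of this 1 line, so every p-value measures the spread between these libraries, which may be technical.

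The 9 genes have unlike functions. TRIM25 is a RING-type ubiquitin ligase that binds RNA and activates the viral RNA sensor RIG-I. UNC119B is a chaperone that carries proteins with a myristoyl lipid and releases them in the primary cilium under control of the GTPase ARL3. PDE1C breaks down cAMP and cGMP when calcium-loaded calmodulin binds it, and BRI3BP is a membrane protein named for its binding to BRI3. UCA1 is a long non-coding RNA first described in urothelial carcinoma, and ZNF114 is a zinc-finger protein of the C2H2 type. UAP1L1 is a paralogue of UAP1, the enzyme that makes UDP-N-acetylglucosamine, the sugar donor for glycosylation. CLU encodes clusterin, a secreted chaperone that is also called apolipoprotein J, and MEGF6 encodes a protein with many EGF-like repeats.

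Promoter windows were matched for 4 of the 9 genes. Those of TRIM25 and BRI3BP, which were lower with afatinib, and of MEGF6, which was higher, are shown because each has a single window. Each window runs from 250 bases before to 50 bases after the RefSeq start (GRCh38.p14), 5′ to 3′ on the gene's own strand. TRIM25 lies at chr17:56914000-56914299 (minus strand), BRI3BP at chr12:124993395-124993694 (plus strand) and MEGF6 at chr1:3611459-3611758 (minus strand). Capitals mark matches on either strand to the GC box GGGCGG, the E-box CACGTG, the ETS motif CCGGAAG or the partial CREB site TGACG, and GC boxes may overlap each other.
TRIM25: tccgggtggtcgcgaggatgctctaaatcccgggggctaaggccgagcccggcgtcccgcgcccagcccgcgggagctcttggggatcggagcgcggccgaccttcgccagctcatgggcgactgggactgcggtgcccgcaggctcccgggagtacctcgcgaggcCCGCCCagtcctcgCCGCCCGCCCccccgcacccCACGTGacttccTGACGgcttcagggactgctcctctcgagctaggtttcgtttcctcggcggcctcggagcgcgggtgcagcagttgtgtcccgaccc
BRI3BP: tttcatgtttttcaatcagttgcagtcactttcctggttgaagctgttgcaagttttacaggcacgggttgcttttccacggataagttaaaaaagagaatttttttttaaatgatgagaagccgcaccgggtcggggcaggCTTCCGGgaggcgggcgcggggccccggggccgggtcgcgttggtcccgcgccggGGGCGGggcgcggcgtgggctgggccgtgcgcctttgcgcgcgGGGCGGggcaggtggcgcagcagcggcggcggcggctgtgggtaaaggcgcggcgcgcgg
MEGF6: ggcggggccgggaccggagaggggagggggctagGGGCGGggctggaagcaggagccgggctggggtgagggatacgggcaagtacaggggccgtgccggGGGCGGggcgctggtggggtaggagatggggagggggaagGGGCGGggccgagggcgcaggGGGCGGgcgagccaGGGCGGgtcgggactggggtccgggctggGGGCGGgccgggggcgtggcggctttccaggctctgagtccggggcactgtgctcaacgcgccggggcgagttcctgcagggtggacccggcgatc
MEGF6 held 6 GC boxes, the first at −216 and the last at −46 from the start, in a window of 78% G and C. TRIM25 held 3 GC boxes between −83 and −65, an E-box at −49 and a partial CREB site at −37, with 72.3% G and C. In BRI3BP an ETS match stood at −108 and GC boxes at −53 and −10, with 65% G and C. Of all 35116 RefSeq windows, 45.0% held a GC box, 24.6% a partial CREB site, 10.3% an ETS match and 7.26% an E-box, and the median G and C content was 58.7%. No match to AP-1 (TGANTCA), TEAD (GGAATG) or FOXO (GTAAACA) lay in the 3 windows, against 7.71%, 14.0% and 3.42% of all windows that held one. PDE1C has 6 RefSeq windows, which are not printed. A TEAD match lay in 2 of them (at −174 and −42), an ETS match in another (at −168) and GC boxes in 3. UNC119B, UCA1, ZNF114, UAP1L1 and CLU were not matched.

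The median library held 42.7M counts (range 28.4M to 48.1M), and the least abundant value of any of the 9 genes was a CLU count of 216. Every group consisted of 2 unlike replicate sets. Replicates 3 and 4 had labelled RNA concentrations of 118 to 330 ng/µl and 4.09 to 9.71% mitochondrial counts, against 346 to 1291 ng/µl and 2.26 to 3.48% in replicates 1 and 2. The line markers VIM, CD44, EGFR and AXL stood at 420 to 2141 CPM (counts per 1M counts of the library), and the receptor genes ESR1, PGR and ERBB2 at 0.156 to 0.491, 3.80 to 6.44 and 51.4 to 102 CPM. GATA3 and EPCAM, markers of luminal and epithelial cells, had 8.22 to 14.2 and 6.60 to 13.7 CPM. The 4 blood markers PTPRC, CD3E, CD68 and HBA1 summed to at most 0.259 CPM. The fibroblast markers PDGFRA, PDGFRB and LUM summed to 1.95 to 8.17 CPM, with PDGFRB alone at 1.89 to 8.11. The endothelial markers PECAM1, VWF, CDH5 and KDR summed to 2.69 to 9.25 CPM. Levels are CPM after TMM scaling, listed for replicates 1 to 4 in that order. A level is a share of the library, so fewer expressing cells and less RNA per cell cannot be told apart. Changes are log2 fold changes ± SE from 1 edgeR fit of all 16 libraries with treatment and replicate set as terms.

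**Figure D1:**
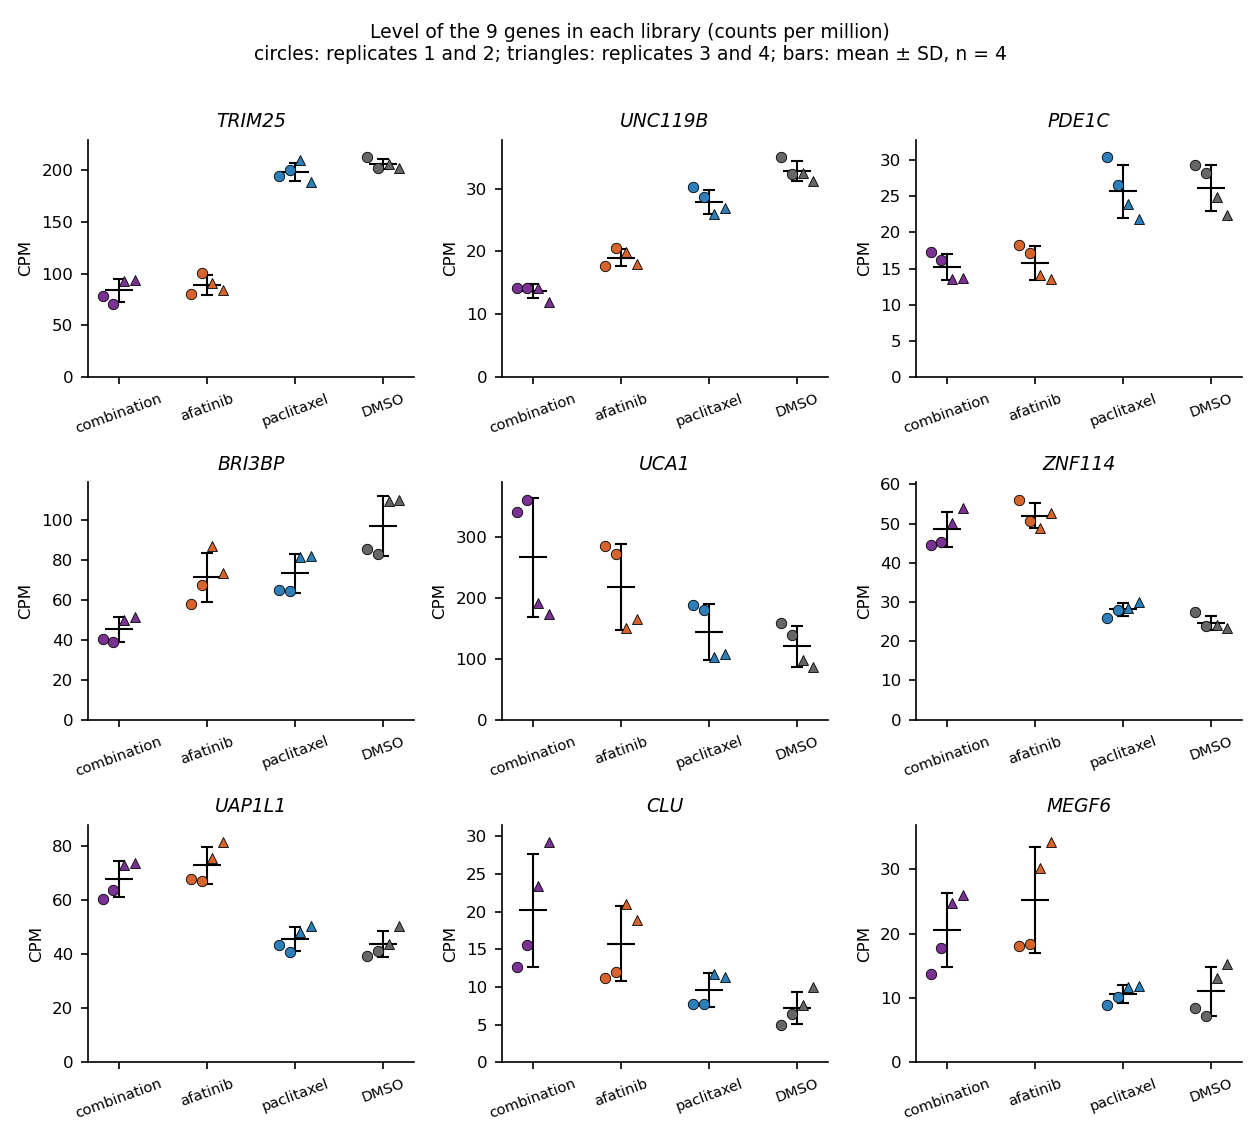
Level of each of the 9 genes in CPM (vertical axis, from 0) in the 4 libraries of every group, with circles for replicates 1 and 2, triangles for replicates 3 and 4, and the mean ± SD (n = 4). The upper 3 panels and BRI3BP show lower levels in combination and afatinib libraries, and the other 5 genes show higher levels there. Circles and triangles separate in every group for UCA1, CLU, MEGF6, PDE1C, BRI3BP and UAP1L1.

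TRIM25 was the most strongly lowered of the 9. It stood at 78.1, 71.0, 92.7 and 94.0 CPM in combination libraries and at 80.1, 101, 91.5 and 83.9 CPM in afatinib libraries, against 194, 200.0, 209.8 and 189 CPM in paclitaxel libraries and 213, 203, 207 and 202 CPM in DMSO libraries. Neither afatinib comparison overlapped: the highest library with afatinib lay far below the lowest without it. The afatinib change was −1.21 ± 0.08 against DMSO, a 2.31-fold lower level, and −1.24 ± 0.08 in the combination against paclitaxel. Among all 17991 genes this was the 43rd lowest change against DMSO and the 59th lowest against paclitaxel. In the background, 19.1% of tested genes passed in either direction in afatinib against DMSO at an adjusted p under 0.05, and 24.2% in the combination against paclitaxel. For TRIM25 and the other 8 genes these shares are context and not a test. They are also the background of the counts of called genes in each list below, which were not tested against them.

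Of 15 tested entries of the RIG-I pathway, in which TRIM25 acts, 2 rose and none fell in each comparison. Without afatinib replicate 2 in afatinib alone, and without combination replicate 4 in the combination, 1 fell. IFIH1, which encodes the sister sensor MDA5, rose by 0.71 ± 0.09 in the combination against paclitaxel (adjusted p = 1.80e-06) and by 0.38 ± 0.08 in afatinib against DMSO (adjusted p = 0.00217). IKBKG, the regulatory subunit of the IκB kinase complex, rose by 0.35 ± 0.07 (adjusted p = 0.000908) and 0.28 ± 0.07 (adjusted p = 0.00895) in the same comparisons. RIG-I itself (DDX58 in the table) changed by −0.04 ± 0.06 in the combination (adjusted p = 0.608) and −0.15 ± 0.05 in afatinib alone (adjusted p = 0.0567). Its adaptor MAVS changed by 0.05 ± 0.06 (adjusted p = 0.623) and −0.10 ± 0.06 (adjusted p = 0.302). The median of the list was −0.04 in the combination and 0.03 in afatinib alone, beside −0.0063 and −0.0034 over all tested genes. IRF7 stands on 2 identifiers and counts as 2 entries, so its reads may be divided.

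Over all tested genes, 24.2% were called in the combination against paclitaxel and 19.1% in afatinib against DMSO, in either direction. Among 45 other tested TRIM entries (TRIM26 stands on 2 identifiers), 8 rose and 5 fell in the combination against paclitaxel. In afatinib against DMSO 8 rose and 3 fell. TRIM16, a ligase linked to autophagy of damaged membranes, rose by 0.72 ± 0.07 in the combination (adjusted p = 4.35e-08) and 0.64 ± 0.07 in afatinib alone (adjusted p = 3.67e-07). TRIM13, a ligase of the endoplasmic reticulum, fell by 0.59 ± 0.09 in the combination (adjusted p = 1.77e-05) and by 0.27 ± 0.08 in afatinib alone (adjusted p = 0.0216). TRIM2, a ligase studied in neurons, rose by 0.63 ± 0.08 (adjusted p = 4.34e-06) and 0.30 ± 0.08 (adjusted p = 0.0108). Alone, the TRIM2 call was lost without afatinib replicate 2 (adjusted p = 0.0596), and that of TRIM13 without any of DMSO replicates 2 and 4 and afatinib replicates 1, 3 and 4 (adjusted p = 0.0540 to 0.107). The others that fell were TRIM14, TRIM32, TRIM45 and TRIM46 in the combination and TRIM14 and TRIM28 in afatinib alone, named after their values were seen. TRIM32 (−0.22 ± 0.07, adjusted p = 0.0302) lost its call without any of combination replicates 1 and 3 and paclitaxel replicates 2, 3 and 4 (adjusted p = 0.0586 to 0.107). List medians were 0.04 in the combination and 0.0085 in afatinib alone.

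UNC119B was lower with afatinib, and lowest in the combination. Its levels were 14.2, 14.2, 14.2 and 12.0 CPM in combination libraries, 17.7, 20.5, 19.9 and 18.0 CPM in afatinib libraries, 30.2, 28.7, 26.0 and 26.8 CPM in paclitaxel libraries, and 35.0, 32.4, 32.5 and 31.2 CPM in DMSO libraries. No pair of groups overlapped, so the order combination, afatinib, paclitaxel, DMSO held for every library. The change was −1.03 ± 0.07 in the combination against paclitaxel and −0.79 ± 0.07 in afatinib against DMSO. Its closest relative UNC119, the other chaperone of the pair, changed by 0.13 ± 0.07 (adjusted p = 0.172) and 0.03 ± 0.07 (adjusted p = 0.812).

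Of 16 tested genes for trafficking of lipid-modified proteins, 2 rose and 1 fell in each comparison. CYS1, which encodes the ciliary protein cystin that UNC119 proteins carry, rose by 0.78 ± 0.19 in the combination (adjusted p = 0.00340) and 0.89 ± 0.17 in afatinib alone (adjusted p = 0.000585). It stood at 1.34 ± 0.103 CPM in combination, 1.98 ± 0.139 in afatinib, 0.752 ± 0.297 in paclitaxel and 1.07 ± 0.106 in DMSO libraries (SD, n = 4). PDE6D, a carrier of prenylated proteins, rose by 0.31 ± 0.08 (adjusted p = 0.00637) and 0.30 ± 0.08 (adjusted p = 0.0105). The gene that fell was the kinase gene SRC in the combination (−0.24 ± 0.07, adjusted p = 0.0129) and the G-protein gene GNAI2 in afatinib alone (−0.19 ± 0.05, adjusted p = 0.0122). The ciliary GTPase gene ARL3 changed by 0.15 ± 0.07 (adjusted p = 0.159) and 0.09 ± 0.07 (adjusted p = 0.431). PDE6D lost its call in afatinib alone without DMSO replicate 1 (adjusted p = 0.0525), and GNAI2 without DMSO replicate 2 (adjusted p = 0.0541). SRC lost it without combination replicate 1 or paclitaxel replicate 3 (adjusted p = 0.0680 and 0.0854). The number that rose reached 4 in the combination without combination replicate 4, while 2 fell without combination replicate 4 or paclitaxel replicate 2. In afatinib alone 2 fell without any of DMSO replicate 3, afatinib replicate 1, combination replicate 4 and paclitaxel replicate 2. List medians were 0.0077 in the combination and −0.02 in afatinib alone.

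PDE1C was lower with afatinib by nearly the same amount in both settings. It stood at 17.3, 16.2, 13.6 and 13.7 CPM in combination libraries, 18.3, 17.2, 14.1 and 13.6 CPM in afatinib libraries, 30.4, 26.6, 24.0 and 21.9 CPM in paclitaxel libraries, and 29.3, 28.2, 24.9 and 22.4 CPM in DMSO libraries. All libraries with afatinib lay below all without it, whereas combination and afatinib overlapped, as did paclitaxel and DMSO. The changes were −0.76 ± 0.06 in the combination against paclitaxel and −0.73 ± 0.06 in afatinib against DMSO. Of 16 other tested genes with phosphodiesterase symbols, 3 rose and 1 fell in each comparison. PDE2A, which cGMP stimulates, rose by 0.43 ± 0.07 in the combination (adjusted p = 7.38e-05) and 0.30 ± 0.07 in afatinib alone (adjusted p = 0.00416). PDE11A, which cleaves both cyclic nucleotides, rose by 0.39 ± 0.09 (adjusted p = 0.00178) and 0.31 ± 0.09 (adjusted p = 0.0121). The third was PDE6D, given above as a carrier of prenylated proteins. It is listed here by its symbol alone and is counted in both lists. PDE10A, also of dual specificity, fell by 0.28 ± 0.07 in both comparisons (adjusted p = 0.00590 and 0.00690). In the combination 2 genes fell without any of DMSO replicates 3 and 4 and paclitaxel replicates 1 and 3. List medians were 0.08 in the combination and 0.10 in afatinib alone.

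BRI3BP was lower with afatinib and lower again with paclitaxel. Its levels were 40.6, 38.9, 49.9 and 51.2 CPM in combination libraries, 57.8, 67.2, 86.8 and 73.2 CPM in afatinib libraries, 65.1, 64.5, 81.5 and 81.6 CPM in paclitaxel libraries, and 85.4, 82.6, 109 and 109.9 CPM in DMSO libraries. Afatinib and DMSO libraries overlapped over all 4 replicates, because afatinib replicate 3 exceeded DMSO replicates 1 and 2, but not within either set. The combination stayed below every other group. The change was −0.70 ± 0.06 in the combination against paclitaxel and −0.44 ± 0.06 in afatinib against DMSO, the smallest afatinib change of the 9 and the 746th lowest of all genes. BRI3, the lysosomal membrane protein that BRI3BP is named for, rose by 0.23 ± 0.07 in the combination (adjusted p = 0.0250) and 0.31 ± 0.07 in afatinib alone (adjusted p = 0.00374), so 1 of the 3 genes of this list rose in afatinib alone and 3 in the combination. The others in this list were ITM2B (0.22 ± 0.08, adjusted p = 0.0409) and ITM2C (0.18 ± 0.07, adjusted p = 0.0416). These encode ITM2 membrane proteins, and being listed beside BRI3 does not make them its relatives. The combination count was 1 without combination replicate 2 or 4 or paclitaxel replicate 1 or 4, and 0 without paclitaxel replicate 2 or 3. Without 1 library, adjusted p reached 0.0878 for BRI3, 0.178 for ITM2B and 0.137 for ITM2C. The list median was 0.22 in the combination and 0.06 in afatinib alone.

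UCA1 was the most abundant of the 5 genes that were higher with afatinib. It stood at 341, 361, 192 and 173 CPM in combination libraries, 286, 273, 150.5 and 166 CPM in afatinib libraries, 188, 179.5, 103 and 107 CPM in paclitaxel libraries, and 159, 138, 98.7 and 86.9 CPM in DMSO libraries. Replicates 1 and 2 stood above replicates 3 and 4 in every group, and the groups overlapped over all 4 replicates in both afatinib comparisons. Within each set they did not overlap, and the order combination, afatinib, paclitaxel, DMSO held in both. The change was 0.87 ± 0.06 in the combination against paclitaxel and 0.84 ± 0.06 in afatinib against DMSO. Among 8 other tested long non-coding RNAs that are abundant or studied in cancer, none rose and 2 fell in the combination, and 1 rose and none fell in afatinib alone. SNHG1, a host of small nucleolar RNAs, fell by 0.46 ± 0.10 in the combination (adjusted p = 0.00155), and LINC00152 (CYTOR) fell by 0.29 ± 0.08 (adjusted p = 0.00921). NEAT1, the scaffold RNA of paraspeckles, rose by 0.57 ± 0.16 in afatinib alone (adjusted p = 0.0288). LINC00152 lost its call without paclitaxel replicate 1 (adjusted p = 0.0525). NEAT1 lost it without any of DMSO replicates 2, 3 and 4 and afatinib replicates 1, 3 and 4 (adjusted p = 0.0524 to 0.0808). MALAT1 changed by 0.11 ± 0.19 in the combination (adjusted p = 0.708) and 0.18 ± 0.19 in afatinib alone (adjusted p = 0.582). List medians were −0.21 and −0.06.

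ZNF114 was higher with afatinib in every library. Its levels were 44.5, 45.4, 50.3 and 53.9 CPM in combination libraries, 56.0, 50.7, 48.8 and 52.7 CPM in afatinib libraries, 25.9, 27.9, 28.6 and 30.0 CPM in paclitaxel libraries, and 27.4, 24.0, 24.2 and 23.3 CPM in DMSO libraries. The lowest library with afatinib lay well above the highest without it, and the replicate sets differed little. The change was 0.79 ± 0.07 in the combination against paclitaxel and 1.07 ± 0.07 in afatinib against DMSO, a 2.10-fold higher level. Among 419 other tested ZNF entries (ZNF66 stands on 2 identifiers), 39 rose and 34 fell in the combination. In afatinib alone 38 rose and 11 fell, and the medians were 0.04 and 0.06. The shares called in either direction over all tested genes were 24.2% and 19.1%. ZNF165, a zinc-finger protein known as a cancer-testis antigen, rose by 1.44 ± 0.12 in the combination (adjusted p = 7.14e-09) and 1.01 ± 0.13 in afatinib alone (adjusted p = 4.37e-06). ZNF76, a transcription factor related to ZNF143, rose by 0.47 ± 0.07 (adjusted p = 4.17e-05) and 0.50 ± 0.07 (adjusted p = 3.57e-05). These counts moved with single libraries: in the combination 19, 23 and 23 rose without combination replicate 2, paclitaxel replicate 1 and paclitaxel replicate 4, and 21 and 19 fell without combination replicates 1 and 2. In afatinib alone 23, 21 and 25 rose without DMSO replicate 1, afatinib replicate 2 and afatinib replicate 3, and 6, 5, 6 and 7 fell without DMSO replicates 2 and 4 and afatinib replicates 3 and 4.

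UAP1L1 was higher with afatinib while its paralogue UAP1 fell. UAP1L1 stood at 60.5, 64.0, 73.1 and 74.0 CPM in combination libraries, 67.8, 67.2, 75.6 and 81.5 CPM in afatinib libraries, 43.4, 40.8, 48.2 and 50.4 CPM in paclitaxel libraries, and 39.6, 41.4, 43.7 and 50.4 CPM in DMSO libraries. The groups with and without afatinib did not overlap, and paclitaxel and DMSO libraries covered the same range. The change was 0.57 ± 0.05 in the combination against paclitaxel and 0.74 ± 0.05 in afatinib against DMSO. UAP1 fell by 0.37 ± 0.05 in the combination (adjusted p = 1.98e-05) and by 0.51 ± 0.05 in afatinib alone (adjusted p = 3.67e-07). Its level was 139 ± 22.4 CPM in combination, 129 ± 22.0 in afatinib, 179 ± 20.9 in paclitaxel and 182 ± 25.7 in DMSO libraries (SD, n = 4).

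Over all tested genes, 19.1% were called in afatinib alone and 24.2% in the combination, in either direction. The UDP-N-acetylglucosamine list was chosen with earlier results known and was not tested against these shares. In afatinib alone, 5 of its 14 tested genes fell and 2 rose. Those that fell encode the enzymes from fructose 6-phosphate to the finished donor: GFPT1 (−0.25 ± 0.06, adjusted p = 0.00230) and GFPT2 (−0.34 ± 0.06, adjusted p = 0.000275), which catalyse the first step, GNPNAT1 (−0.21 ± 0.07, adjusted p = 0.0282), PGM3 (−0.15 ± 0.05, adjusted p = 0.0387) and UAP1. Those that rose were GNPDA1 (0.54 ± 0.06, adjusted p = 7.91e-07), a deaminase that runs against the first step, and AMDHD2 (0.48 ± 0.09, adjusted p = 0.000468), a deacetylase that degrades an intermediate. GNPNAT1 lost its call without DMSO replicate 3 (adjusted p = 0.152) or afatinib replicate 3 (adjusted p = 0.127), and 3 genes then fell. PGM3 lost it without any of DMSO replicates 2, 3 and 4, afatinib replicates 1, 3 and 4 and paclitaxel replicate 1 (adjusted p = 0.0506 to 0.110). In the combination against paclitaxel 2 genes fell, UAP1 and the hexokinase gene HK2 (−0.20 ± 0.07, adjusted p = 0.0297), and 1 rose, GNPDA1 (0.49 ± 0.06, adjusted p = 2.28e-06). HK2 lost its call without combination replicate 1 or 2 or paclitaxel replicate 1, 3 or 4 (adjusted p = 0.0577 to 0.177), and 3 genes rose without paclitaxel replicate 2. GFPT2 had 0.13 ± 0.06 there (adjusted p = 0.117). List medians were 0.0049 in the combination and −0.04 in afatinib alone. GFPT1, GNPNAT1, PGM3, AMDHD2 and HK2 were named after their values were seen, as were SRC and SERPINE2 elsewhere.

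CLU had the lowest mean level of the 9 per base of transcript in DMSO libraries, within an SD of MEGF6. It was higher with afatinib. Its levels were 12.7, 15.5, 23.3 and 29.2 CPM in combination libraries, 11.1, 11.9, 21.0 and 18.9 CPM in afatinib libraries, 7.69, 7.67, 11.7 and 11.4 CPM in paclitaxel libraries, and 4.94, 6.45, 7.61 and 9.95 CPM in DMSO libraries. Neither afatinib comparison overlapped, although the lowest combination library was close to the highest paclitaxel libraries. Within each set the order from the highest was combination, afatinib, paclitaxel, DMSO. The change was 1.04 ± 0.10 in the combination against paclitaxel and 1.11 ± 0.10 in afatinib against DMSO, a 2.16-fold higher level. Of 6 tested clusterin receptors and other extracellular chaperones, 1 rose and 2 fell in the combination, and 1 fell in afatinib alone. LRP1, a scavenger receptor, rose by 0.37 ± 0.09 (adjusted p = 0.00297). APOE, a lipid-carrying apolipoprotein, fell by 0.88 ± 0.17 (adjusted p = 0.000485), and PLXNA4, a semaphorin co-receptor, fell by 1.18 ± 0.25 (adjusted p = 0.00129). APOE averaged 1.46 ± 0.414 CPM in combination and 2.73 ± 0.931 CPM in paclitaxel libraries (SD, n = 4). SERPINE2, a protease inhibitor, fell by 0.28 ± 0.08 in afatinib alone (adjusted p = 0.0133), and lost its call without DMSO replicate 2 or 4 or afatinib replicate 4 (adjusted p = 0.0533 to 0.0622). List medians were 0.01 and −0.05.

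MEGF6 had the largest change of the 5 raised genes in afatinib alone against DMSO. It stood at 13.8, 17.8, 24.7 and 25.9 CPM in combination libraries, 18.1, 18.4, 30.2 and 34.2 CPM in afatinib libraries, 8.88, 10.1, 11.6 and 11.8 CPM in paclitaxel libraries, and 8.46, 7.23, 13.1 and 15.3 CPM in DMSO libraries. Neither afatinib comparison overlapped, and afatinib exceeded the combination within both sets. Combination and DMSO libraries overlapped over all 4 replicates but not within a set. The change was 0.92 ± 0.10 in the combination against paclitaxel and 1.20 ± 0.10 in afatinib against DMSO, a 2.29-fold higher level. Of 4 tested relatives of the MEGF family, none was called in afatinib alone. List medians were 0.07 in the combination and 0.11 in afatinib alone.

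Levels of different genes were compared per base of transcript, as CPM divided by gene length in kilobases (RPKM, mean ± SD, n = 4). In combination libraries UCA1 stood highest at 116 ± 42.6 RPKM, followed by ZNF114 at 15.7 ± 1.43, UAP1L1 at 12.9 ± 1.27, TRIM25 at 12.6 ± 1.69 and BRI3BP at 6.79 ± 0.951. CLU had 3.05 ± 1.14, MEGF6 2.92 ± 0.819, UNC119B 2.63 ± 0.216 and PDE1C 1.10 ± 0.131 RPKM there. In DMSO libraries UCA1 was again highest at 52.5 ± 14.6 RPKM, with TRIM25 next at 30.9 ± 0.724 and BRI3BP at 14.6 ± 2.23. UAP1L1 had 8.29 ± 0.892, ZNF114 8.01 ± 0.589, UNC119B 6.31 ± 0.309, PDE1C 1.89 ± 0.229, MEGF6 1.57 ± 0.543 and CLU 1.09 ± 0.320 RPKM. Some means lay within an SD of each other, so their order is not clear of the spread. In combination libraries these were UAP1L1 and TRIM25, and CLU, MEGF6 and UNC119B. In DMSO libraries they were UAP1L1 and ZNF114, and MEGF6 with both PDE1C and CLU.

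Afatinib had the same direction with and without paclitaxel for all 9 genes, which is what they were chosen for. For 4 of them the sizes were also close: the change in the combination was 103% of that in afatinib alone for TRIM25, UCA1 and PDE1C, and 93.4% for CLU. BRI3BP and UNC119B were lowered more in the combination (158% and 132%), with differences of −0.26 ± 0.08 and −0.25 ± 0.10. ZNF114, MEGF6 and UAP1L1 were raised less there (73.4%, 76.5% and 77.3%), with differences of −0.29 ± 0.10, −0.28 ± 0.14 and −0.17 ± 0.08. These differences use the same groups as the choice of genes and were not tested. Over all genes, 1950 were called in the same direction in both comparisons, 10.8% of those tested. That is 56.8% of the 3432 called in afatinib alone and 44.9% of the 4347 called in the combination against paclitaxel, and 11 genes were called in opposite directions. The 2 comparisons share no library.

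**Figure D2:**
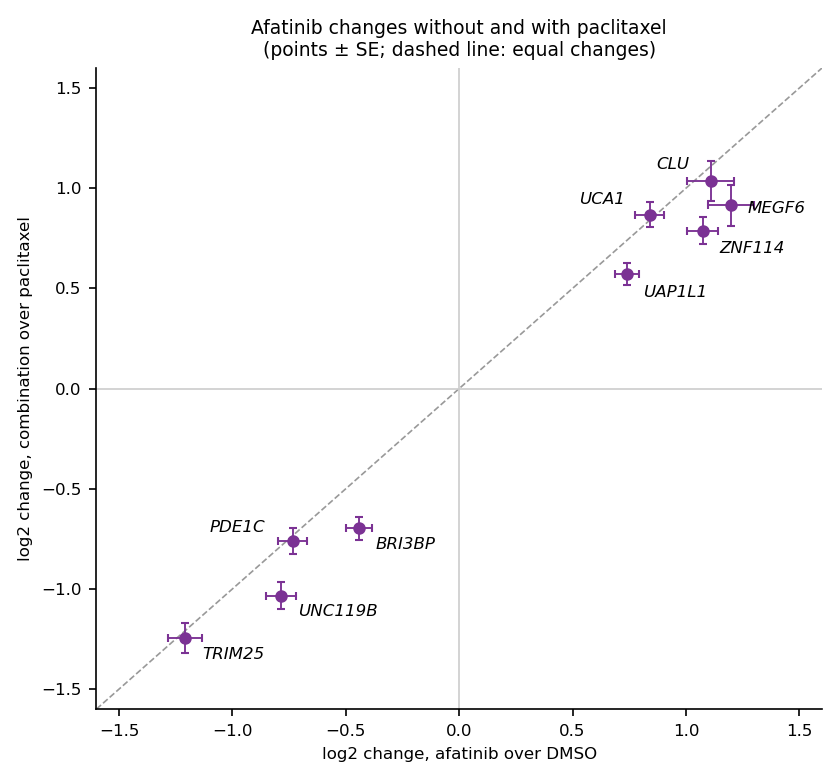
Log2 change of each gene in afatinib over DMSO (horizontal axis) and in the combination over paclitaxel (vertical axis), as points ± SE, with a dashed line of equal changes. TRIM25, PDE1C, UCA1 and CLU lie on or near the line, BRI3BP and UNC119B lie below it among the lowered genes, and ZNF114, MEGF6 and UAP1L1 lie below it among the raised ones.

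The combination gave the lowest mean level of each lowered gene and the highest mean level of UCA1 and CLU. For TRIM25 and PDE1C it was close to afatinib alone. Combination against afatinib was −0.09 ± 0.08 for TRIM25, with −0.29 in replicates 1 and 2 and 0.10 in replicates 3 and 4. It was −0.05 ± 0.07 for PDE1C, where the groups overlapped within both sets. Against DMSO the combination change was −1.30 ± 0.08 for TRIM25, −1.26 ± 0.07 for UNC119B, −1.10 ± 0.06 for BRI3BP and −0.79 ± 0.06 for PDE1C. Among the raised genes it was 1.45 ± 0.10 for CLU, 1.11 ± 0.06 for UCA1, 0.97 ± 0.07 for ZNF114, 0.92 ± 0.10 for MEGF6 and 0.63 ± 0.05 for UAP1L1. ZNF114, MEGF6 and UAP1L1 thus stood below their afatinib-alone values of 1.07, 1.20 and 0.74.

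Whether paclitaxel moved the genes was tested as its change averaged over cells without and with afatinib, a contrast that is orthogonal to both afatinib comparisons. In the main fit 4 of the 9 passed. BRI3BP fell by 0.53 ± 0.04 (95% interval −0.61 to −0.45, adjusted p = 1.41e-10), a 1.44-fold lower level. UNC119B fell by 0.36 ± 0.05 (−0.45 to −0.26, adjusted p = 1.70e-06). CLU rose by 0.38 ± 0.07 (0.23 to 0.53, adjusted p = 0.000168) and UCA1 by 0.26 ± 0.04 (0.17 to 0.35, adjusted p = 5.72e-05). The CLU call depended on how RNA concentration was handled. It was lost with log2 concentration in place of the set (0.11, adjusted p = 0.350). It was also lost in limma on the authors' values corrected for RNA concentration (0.04, adjusted p = 0.832). UCA1 lost its call with only replicates 3 and 4 (0.20, adjusted p = 0.0514). In each of these 4 genes paclitaxel and afatinib pointed the same way. Agreement in direction was not counted over all genes, so this describes these 4 alone. Of all tested genes, 17.1% were higher and 19.4% lower with paclitaxel, and 46.6% of the 1950 genes called in both afatinib comparisons were called for paclitaxel, so 4 of 9 is near that background.

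The other 5 genes did not pass. TRIM25 had −0.07 ± 0.05 (−0.18 to 0.04, adjusted p = 0.299) and PDE1C −0.04 ± 0.05 (−0.13 to 0.05, adjusted p = 0.545). ZNF114 had 0.04 ± 0.05 (−0.06 to 0.14, adjusted p = 0.583) and UAP1L1 −0.02 ± 0.04 (−0.10 to 0.06, adjusted p = 0.696). The interval of MEGF6 was wider, at −0.14 ± 0.07 (−0.29 to 0.01, adjusted p = 0.141). A missed threshold does not show that paclitaxel left these genes as they were, and the first 4 intervals all lie between −0.18 and 0.14. MEGF6 passed without paclitaxel replicate 2 (−0.19, adjusted p = 0.0321) and within replicates 3 and 4 (−0.30, adjusted p = 0.0157), against 0.03 within replicates 1 and 2.

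The 2 paclitaxel comparisons behind the average had the same sign in the genes that passed. BRI3BP changed by −0.66 ± 0.06 in the combination against afatinib and −0.40 ± 0.06 in paclitaxel against DMSO, and UNC119B by −0.48 ± 0.07 and −0.23 ± 0.07. CLU changed by 0.35 ± 0.10 and 0.42 ± 0.11, and UCA1 by 0.27 ± 0.06 and 0.24 ± 0.06. Opposite signs stood in ZNF114 (−0.10 ± 0.07 in the combination against afatinib and 0.18 ± 0.07 in paclitaxel against DMSO) and in UAP1L1 (−0.11 ± 0.05 and 0.06 ± 0.05). These values share groups with the choice of genes and carry no test.

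**Figure D3:**
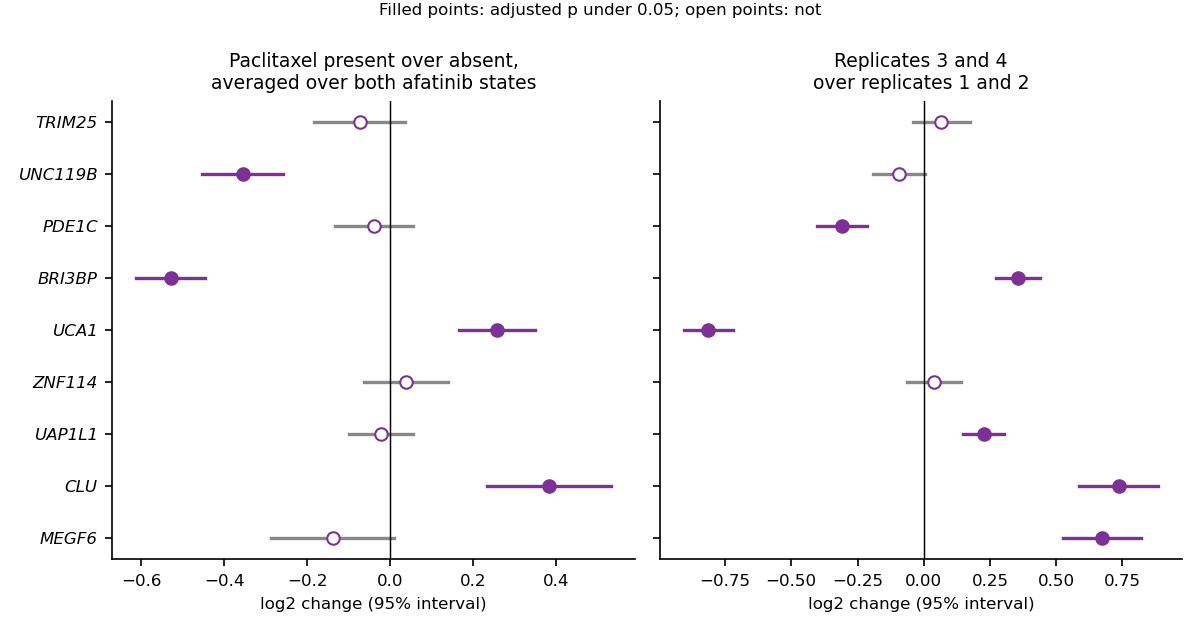
Log2 change with its 95% interval for paclitaxel present over absent, averaged over both afatinib states (left), and for replicates 3 and 4 over replicates 1 and 2 (right), filled where the adjusted p was under 0.05. BRI3BP and UNC119B lie below 0 and CLU and UCA1 above it on the left, and 6 of the 9 genes are filled on the right, with UCA1 lowest and CLU highest.

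The replicate sets differed in 6 of the 9 genes, in a table where 36.2% of tested genes were higher and 33.3% lower in replicates 3 and 4. UCA1 fell by 0.81 ± 0.05 (adjusted p = 3.82e-13) and PDE1C by 0.31 ± 0.05 (adjusted p = 1.34e-06) in replicates 3 and 4 relative to replicates 1 and 2. CLU rose by 0.74 ± 0.07 (adjusted p = 1.98e-09), MEGF6 by 0.67 ± 0.07 (adjusted p = 1.24e-08), BRI3BP by 0.36 ± 0.04 (adjusted p = 1.95e-08) and UAP1L1 by 0.23 ± 0.04 (adjusted p = 9.67e-06). For 5 of these 6, all but BRI3BP, the difference between sets was larger in size than the paclitaxel change, without a test of that contrast. TRIM25 (0.07 ± 0.05, adjusted p = 0.266), ZNF114 (0.04 ± 0.05, adjusted p = 0.485) and UNC119B (−0.09 ± 0.05, adjusted p = 0.0862) did not pass. UNC119B passed without DMSO replicate 2 or 3, afatinib replicate 1 or 3, or combination replicate 3 (adjusted p = 0.0119 to 0.0465). Longer genes tended to be higher in replicates 3 and 4, with medians of −0.17, −0.06, 0.03 and 0.16 over 4 length classes of all genes. In the longest class PDE1C fell, while CLU, MEGF6 and BRI3BP rose and TRIM25 had a positive value that did not pass. UCA1 fell in the second class, whose median was −0.06 and where ZNF114 had 0.04. In the third class UAP1L1 rose and UNC119B had −0.09.

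RNA concentration also differed between treatments inside a set. In replicates 3 and 4 it averaged 143 ng/µl in combination, 184 in afatinib, 252 in paclitaxel and 311 in DMSO libraries. In replicates 1 and 2 the averages were 623 ng/µl in combination, 1002 in afatinib, 388 in paclitaxel and 1171 in DMSO libraries. Mitochondrial counts averaged 8.74% in combination, 7.14% in afatinib, 6.56% in paclitaxel and 4.40% in DMSO libraries of replicates 3 and 4. With log2 concentration in place of the set, the afatinib change against DMSO was 1.03 for UCA1, 0.92 for CLU and 1.02 for MEGF6. The same fit gave −1.23 for TRIM25 and 1.07 for ZNF114. Under it CLU no longer passed for paclitaxel (0.11, adjusted p = 0.350), and MEGF6 passed (−0.40, adjusted p = 0.000180). Afatinib changes within each set had the same sign for all 9 genes in both comparisons, which describes genes chosen on these changes. For TRIM25 against DMSO they were −1.23 in replicates 3 and 4 and −1.18 in replicates 1 and 2. For MEGF6 in the combination against paclitaxel they were 1.11 in replicates 3 and 4 and 0.73 in replicates 1 and 2.

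On either side of each of the 9, the nearest tested gene that did not overlap it was examined in the same fit. Positions are on GRCh38 from GENCODE 29. Of these 18 neighbours, 1 rose and 4 fell in the combination against paclitaxel, and 2 rose and 3 fell in afatinib against DMSO. Over all tested genes, 24.2% and 19.1% were called in these comparisons in either direction. The neighbour counts were not tested against these shares. MLEC, which encodes the glycan-binding protein malectin and ends 8571 bases before UNC119B on chromosome 12 (120686869 to 120701864), fell by 0.24 ± 0.06 in the combination (adjusted p = 0.00481) and 0.31 ± 0.06 in afatinib alone (adjusted p = 0.000826). TPM4, a tropomyosin gene 230695 bases from UCA1 on chromosome 19, fell by 0.20 ± 0.07 (adjusted p = 0.0386) and 0.44 ± 0.07 (adjusted p = 0.000101), opposite to UCA1. Beside TRIM25, the BMP antagonist gene NOG fell by 0.93 ± 0.16 in the combination (adjusted p = 0.000779), 240797 bases away on chromosome 17. Beside UAP1L1 on chromosome 9, SAPCD2 rose by 0.25 ± 0.07 (adjusted p = 0.00795) and the antisense RNA MAN1B1-AS1 fell by 0.76 ± 0.17 (adjusted p = 0.00191) in the combination.

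In afatinib alone the remaining calls were CCDC114 beside ZNF114 (0.79 ± 0.22, adjusted p = 0.0149), ARHGEF16 beside MEGF6 (0.31 ± 0.10, adjusted p = 0.0372) and AACS beside BRI3BP (−0.17 ± 0.05, adjusted p = 0.0191). Single libraries ended some of these calls. TPM4 lost its call in the combination without any of 9 libraries (DMSO replicates 1 and 2, afatinib replicate 2, combination replicates 1, 2 and 4 and paclitaxel replicates 1, 2 and 3), with adjusted p of 0.0504 to 0.157. CCDC114 lost it without DMSO replicate 1 or afatinib replicate 4 (adjusted p up to 0.0565), and AACS without DMSO replicate 2 or afatinib replicate 1 (adjusted p up to 0.0872). ARHGEF16 lost it without DMSO replicate 2 or 3 or afatinib replicate 2, 3 or 4 (adjusted p up to 0.143). A non-coding RNA that starts on the opposite strand inside the TRIM25 promoter window changed by −0.72 ± 0.36 in the combination (adjusted p = 0.157) and −0.18 ± 0.32 in afatinib alone (adjusted p = 0.756).

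**Figure D4:**
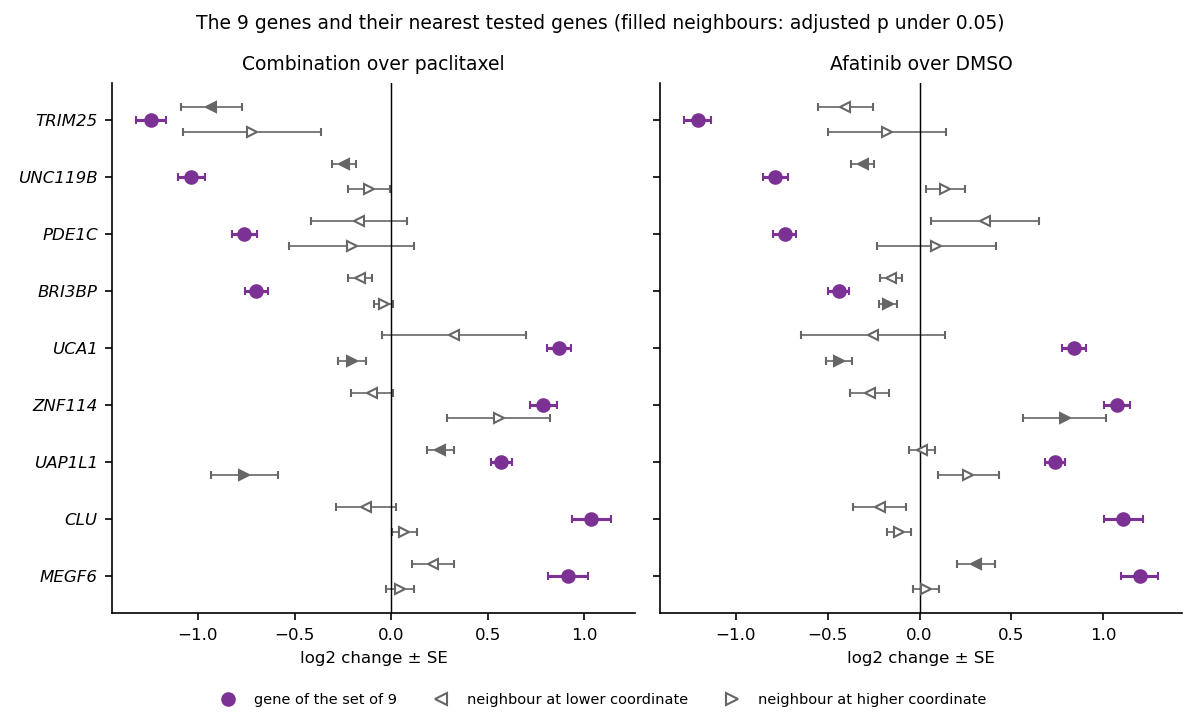
Log2 change ± SE in the combination over paclitaxel (left) and in afatinib over DMSO (right) for each of the 9 genes (circles). Triangles show the nearest tested neighbour without overlap at lower and higher coordinate, filled where the adjusted p was under 0.05. The circles show changes for which the 9 genes were chosen, so their distance from the triangles is no result. Among the triangles MLEC and TPM4 are filled in both panels, and MAN1B1-AS1 beside UAP1L1 had −0.76 in the combination.

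UNC119B (chromosome 12, 120710435 to 120723640) and BRI3BP (chromosome 12, 124993700 to 125031231) share a chromosome, as do UCA1 (chromosome 19, 15828206 to 15836326) and ZNF114 (chromosome 19, 48270102 to 48287608). TRIM25 spans 56836387 to 56914080 on chromosome 17, PDE1C 31751179 to 32299329 on chromosome 7 and UAP1L1 137077501 to 137084539 on chromosome 9. CLU spans 27596917 to 27615031 on chromosome 8 and MEGF6 3489920 to 3611495 on chromosome 1. Other annotated genes overlap some of them, and the strand setting of the counting was not given in the sources used here, so reads of overlapping genes cannot be told apart. C17orf67 and DGKE, which overlap TRIM25, were credited with 65 to 140 and 74 to 205 counts per library. LINC01764, which overlaps UCA1, had 5 to 19, and ZNF114-AS1 had 0 to 8. Such counts do not bound the reads that may be shared. In the combination against paclitaxel C17orf67 changed by −0.18 ± 0.15, DGKE by −0.24 ± 0.13 and LINC01764 by −0.15 ± 0.35. In afatinib against DMSO they changed by 0.02 ± 0.14, −0.02 ± 0.12 and 0.02 ± 0.34.

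Over the 16 libraries, log2 CPM centred within each set correlated with Pearson r of 0.849 to 0.970 in the 10 pairs of raised genes (median 0.914) and 0.745 to 0.978 in the 6 pairs of lowered genes (median 0.923). In the 20 mixed pairs r was −0.973 to −0.580 (median −0.931). The libraries share their treatments, for which the genes were chosen, so these values are a description. TRIM25 and PDE1C had the highest r. The lowest among lowered genes involved BRI3BP, with 0.75 to PDE1C and 0.76 to TRIM25, and the weakest mixed pair was BRI3BP and MEGF6.

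**Figure D5:**
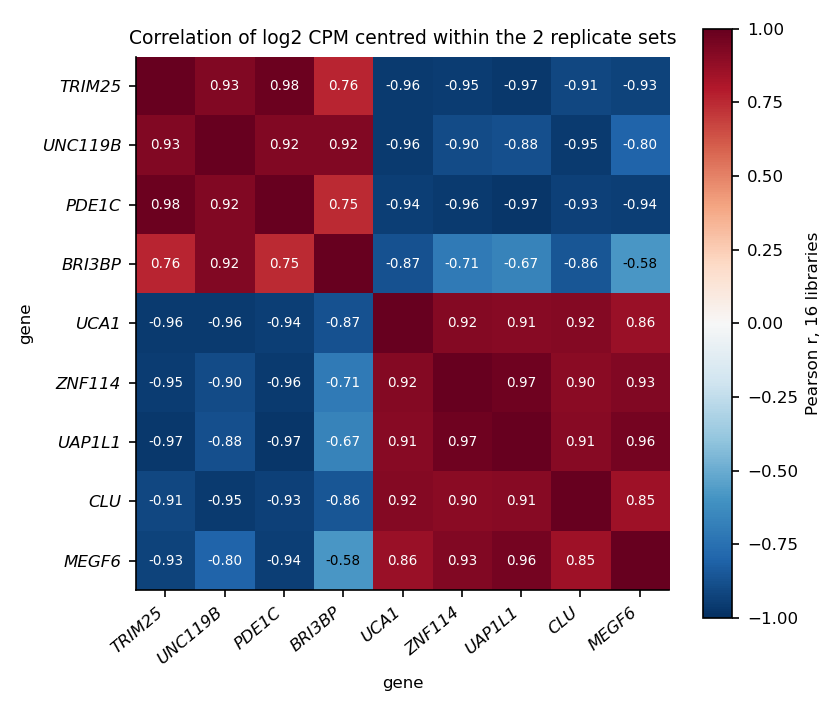
Pearson r between each pair of the 9 genes over 16 libraries, from log2 CPM centred within each replicate set, on a colour scale of −1 to 1. The 4 lowered and 5 raised genes form 2 blocks of positive r, and the palest cells join BRI3BP to MEGF6, UAP1L1 and ZNF114.

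Among 9709 other genes with an average log2 CPM of at least 3, those most like each gene by the same r were taken. FGF5, a growth factor gene, ranked first for TRIM25 (r = 0.985) and for PDE1C (0.980), followed by VAPB (0.970) and ADAMTS6 (0.971). TGFB2-AS1 (0.975) and ASB1 (0.970) were most like UNC119B. TLR4, the lipopolysaccharide receptor gene, and PHLDA1 (0.980 each) were most like BRI3BP. For UCA1 they were the kinase gene ALPK1 (0.967) and HS1BP3 (0.966), for ZNF114 CLIP2 (0.950) and C2orf43 (0.948), and for UAP1L1 the sphingosine 1-phosphate transporter gene SPNS2 (0.959) and USP19 (0.958). The AMP deaminase gene AMPD3 (0.976) and CD22 (0.966) were most like CLU, and the lysosomal channel gene MCOLN3 (0.982) and C14orf159 (0.960) most like MEGF6. These values rest on 16 libraries that share treatments and have no test.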

How the data were processed

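RNA sequencing counts of 16 libraries in 4 groups were analysed. The authors deposited whole-number counts per gene, made with STAR 2.7.5b, featureCounts and Subread 2.0.1 on hg38, per the submitters' processing notes. Annotation and strand setting are not stated in the labels or headers. The authors also deposited log2 values corrected for RNA concentration, per the file headers and name, and these were used for an alternative alone. Another 2 numeric columns in the corrected file were left aside. CPM and RPKM were computed here from the deposited counts and gene lengths.

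Counts were filtered with filterByExpr (minimum count 10, minimum total 15), scaled by TMM and fitted in edgeR 4.0.16 (R 4.3.3) with the robust quasi-likelihood F test on all 16 libraries, with treatment and replicate set (replicates 1 and 2, or 3 and 4) as terms. The sets follow the labelled RNA concentration. Calls required a Benjamini-Hochberg adjusted p below 0.05 over 17991 genes. SE is |log2 change| / √F. Every adjusted p comes from this fit unless a sentence names another. The common biological coefficient of variation was 7.41%. On simulated counts with 17762 genes, 50 of 50 genes seeded with a log2 change of 0.5 and 49 of 50 seeded with 1 were recovered for the averaged paclitaxel change, with 4 false calls.

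The 9 genes and all lists were chosen with earlier results of these data known. The rule for names takes the 9 genes and the nearest tested gene on either side that does not overlap. It also takes the 2 genes with the highest r to each of the 9, and up to 3 called genes of each list with the smallest p. The 10 lists are RIG-I signalling, TRIM genes, lipid-modified cargo trafficking, phosphodiesterases, BRI3 with ITM2B and ITM2C, long non-coding RNAs, ZNF genes, UDP-N-acetylglucosamine pathway, clusterin receptors and chaperones, and MEGF genes. A result for 1 named gene is not reported here.

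Pairing by replicate number was examined through deviations from the group means. Same-numbered libraries correlated at 0.751 to 0.935 (24 pairs), above the criterion set for pairing (every pair over 0.1). For libraries of 1 replicate set with unlike numbers the range was 0.709 to 0.943, and for libraries of unlike sets −0.917 to −0.568. Deviations from group means keep the difference between sets, so this criterion cannot tell pairing by number from membership of a set. No pair of libraries of 1 group agreed within sampling noise (χ² per gene of 6.62 to 336). In all, 26 alternatives were run, among them DESeq2 1.42.0, limma 3.58.1 on the corrected table, and leaving out each of 16 libraries.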

Additional observations from a re-analysis of the deposited data

Results flagged for a closer look

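UNC119B in combination replicate 4 lay apart from the other libraries of its group. It had 12.0 CPM, against 14.2 to 14.2 CPM in the other 3 combination libraries. The gap to its nearest neighbour took up 0.990 of the range of the group in log2 CPM, above the 95% critical value of Dixon's test for 4 samples. Over 36 groups of 4 libraries screened, chance gives about 1 in 20.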

How the results depend on the processing

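For all 9 genes the sign of both afatinib changes was the same under each of the 26 alternatives. The genes were chosen on these changes in the same libraries, so this is a description and no independent support. Counts of called genes moved most with the treatment of RNA concentration and with fewer libraries. The 3432 genes called in afatinib against DMSO became 987 with the authors' corrected table, 380 with no concentration term, 1245 with only replicates 1 and 2, and 527 with only replicates 3 and 4. The 4347 called in the combination against paclitaxel became 2030, 768, 1974 and 1298 under the same settings. The 6576 called for paclitaxel became 4348, 2273, 4244 and 3296. Only 2 of the 9 genes, BRI3BP and UNC119B, were called for paclitaxel with no concentration term, where UCA1 had 0.27 (adjusted p = 0.505) and CLU 0.38 (adjusted p = 0.281). UCA1 also lost its call with only replicates 3 and 4 (0.20, adjusted p = 0.0514), and CLU with the authors' table (0.04, adjusted p = 0.832) and with log2 concentration as a term (0.11, adjusted p = 0.350). MEGF6 gained a call with the authors' table (−0.41, adjusted p = 0.00423), log2 concentration (−0.40, adjusted p = 0.000180) and no filter (−0.16, adjusted p = 0.0370). The cause of these shifts was not tested beyond the settings named. Leaving out 1 library gave 2512 to 3667 genes in afatinib against DMSO, 3324 to 4655 in the combination against paclitaxel, 6081 to 6590 for paclitaxel with 4 to 5 of the 9 genes called, and 12214 to 12656 between replicate sets (12508 with all libraries) with 6 to 7 of the 9. For paclitaxel the sign turned in TRIM25 (0.032) with only replicates 3 and 4, in PDE1C with the authors' table (0.087) and log2 concentration (0.075), and in ZNF114 (−0.091) and MEGF6 (0.034) with only replicates 1 and 2. CLU in paclitaxel against DMSO turned to −0.038 with the authors' table, and ZNF114 between replicate sets to −0.0014 with no filter. UNC119B between replicate sets gained a call with no filter (adjusted p = 0.0358). With the replicate block in place of the set, no call among the 9 genes changed, nor did any other call named above, and 4446, 5373 and 7434 genes were called in afatinib against DMSO, in the combination against paclitaxel and for paclitaxel. Of 63 calls of other genes named above, 51 were lost with no concentration term, 40 with only replicates 3 and 4, 38 with the authors' table, 27 with only replicates 1 and 2 and 19 with log2 concentration, and none under DESeq2, its size factors or the block. The corrected table has no difference between replicate sets to test.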
